A study of Mus musculus with 23 samples.

Results

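The genes described here are 10 transcripts of the ATF4 stress response, *Gdf15*, *Trib3*, *Atf4*, *Atf5*, *Ddit3*, *Ddit4*, *Asns*, *Chac1*, *Sesn2* and *Nupr1*, taken by gene name from a liver array of 37074 named genes. They were read by 15 of the 56605 probes of the array. All 15 probes passed the filter on low signal, which left 21056 genes in all. *Gdf15* and *Trib3* were chosen by their measured differences between pregnenolone 16α-carbonitrile (PCN) and control livers in these same data, which ran in opposite directions, so their values after PCN are given as a description with no test.

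Liver RNA came from 23 male mice, 1 array per mouse. Wild-type (WT) C57BL/6J mice were bought at 6 weeks of age. *Pxr*-/- mice, which lack the nuclear receptor PXR (gene *Nr1i2*) and were backcrossed to the same background, had been bred in the facility, so genotype and colony cannot be told apart. All mice were acclimatised for 2 weeks, and the age of the *Pxr*-/- mice was not given in the sources used here. PCN, a ligand of rodent PXR, was injected intraperitoneally each day for 4 days at 100 mg/kg in corn oil (WT PCN, n = 5; *Pxr*-/- PCN, n = 6), and control mice received corn oil alone (WT CONT, n = 6; *Pxr*-/- CONT, n = 6). Livers of all groups were taken at ZT6 (6 h after lights on), which was 6 h from the last injection. Their feeding state at that time is called fed in the labels and semi-fasted in the study's text.

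When a cell lacks amino acids or haem, accumulates unfolded protein or senses viral RNA, kinases phosphorylate the translation factor eIF2α. General protein synthesis then slows while the messenger of the transcription factor ATF4 is translated more. ATF4, with C/EBP and other bZIP partners, drives genes for amino acid synthesis and uptake, for redox balance, for feedback on the response and, when stress persists, for cell death. Because ATF4 is controlled largely in translation, its mRNA level does not report its activity. In liver the response also feeds the secreted hormones GDF15 and FGF21.

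Arrays were of even quality. The arrays detected 29510 to 33321 probes above their background, and the correlation of an array with the rest of its group was between 0.9923 and 0.9974. *Cyp3a11*, the standard target of PXR in mouse liver, was 3.55 log2 units higher in WT PCN than in WT CONT mice (limma, adjusted p = 4.1e-10) and 0.31 higher in *Pxr*-/- PCN than in *Pxr*-/- CONT mice (adjusted p = 0.43). The probe for *Nr1i2* read 11.47 ± 0.55 (SD, n = 6) in WT CONT and 11.44 ± 0.80 (n = 6) in *Pxr*-/- CONT, and therefore checks no genotype label. The signals of the 6 hepatocyte markers fixed for the check, summed and then put on the log2 scale, were 19.91 to 20.24 on all arrays. The sum was carried mostly by *Alb* and *Serpina1a*, the brightest of the 6, and so follows the other markers little.

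ATF4 and C/EBP proteins bind a composite element, and promoters of the 10 genes were searched for its letters, TGATGNAA, on both strands from 250 bases before to 50 bases after the start. RefSeq gave 12 promoters for the 10 genes (GRCm38.p6). The letters occurred in promoters of 4 of them, *Asns*, *Chac1*, *Nupr1* and *Trib3*, and in 3.97% of all 32851 mouse promoters. These 4 stretches are shown because they hold the letters. Of their genes, *Asns* and *Chac1* were not called after PCN in either genotype, and *Trib3* had been chosen for its difference. No shared or opposite direction is therefore read from the letters. Each runs 5′ to 3′ on the strand of its gene, with the matched letters in capitals (TGATGNAA in *Asns*, its reverse complement in the other three).
*Asns*, chr6:7693210-7693258, minus strand, match from -23 to -16: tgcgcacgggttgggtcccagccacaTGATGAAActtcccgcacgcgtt
*Chac1*, chr2:119351023-119351082, plus strand, match from -193 to -186: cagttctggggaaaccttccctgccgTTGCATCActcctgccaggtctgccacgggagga
*Nupr1*, chr7:126625547-126625606, minus strand, match from -110 to -103: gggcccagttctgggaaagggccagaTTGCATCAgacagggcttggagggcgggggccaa
*Trib3*, chr2:152344028-152344057, minus strand, match from 15 to 22: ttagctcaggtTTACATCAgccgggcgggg

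Positions count from the first transcribed base. A match, or none, describes the letters of these windows only.

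*Gdf15*, which encodes a circulating hormone that lowers food intake through the receptor GFRAL in the hindbrain, had the largest difference between groups of the 10 genes. Its probe lies on chromosome 8 (73153293 to 73153352, mm9). In WT CONT livers its normalized log2 signal was 9.12 at the lowest, 10.20 at the median and 11.17 at the highest. The 5 WT PCN livers read 11.48, 11.85, 12.28, 12.59 and 12.93. Every WT PCN liver was thus above every WT CONT liver (5.85% of all genes were higher without overlap in that comparison, and nothing is read from this, since the gene was chosen there).

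*Gdf15* ranged from 8.98 to 9.95 in *Pxr*-/- CONT livers (median 9.56). It ranged from 8.74 to 10.19 in *Pxr*-/- PCN livers (median 9.78). These ranges overlapped each other almost entirely, and both overlapped that of WT CONT. Ordered by mean, the groups were *Pxr*-/- CONT (9.55 ± 0.35, SD, n = 6), *Pxr*-/- PCN (9.65 ± 0.49, n = 6), WT CONT (10.23 ± 0.69, n = 6) and WT PCN (12.23 ± 0.58, n = 5), and only the last stood clear of its neighbour.

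*Gdf15* was 2.02 log2 units higher in WT PCN than in WT CONT mice (95% confidence interval 1.40 to 2.64), a 4.06-fold difference, and 56 of the 21056 genes had a larger rise. The difference in *Pxr*-/- mice was 0.10 (-0.49 to 0.69), and -0.04 without *Pxr*-/- PCN replicate 3. The difference between these effects was 1.92 (1.07 to 2.78). Without WT PCN replicate 4, the liver with the highest value, the WT difference was 1.82, and within washing batch 2 alone, which held 2 WT PCN arrays, it was 1.45. The comparison of the CONT groups, the only one of *Gdf15* and *Trib3* that was tested, gave -0.68 for *Gdf15* in *Pxr*-/- against WT mice (limma, adjusted p = 0.36). For *Trib3* it gave 0.50 (-0.08 to 1.08, adjusted p = 0.52). The CONT livers also entered the differences by which both genes were chosen, so these tests are not independent of the choice.

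*Trib3* encodes a pseudokinase that is switched on by ATF4 and CHOP, binds ATF4 and Akt, and dampens the response. Its probe lies on chromosome 2 (152163161 to 152163220, mm9). WT CONT livers ranged from 9.59 to 11.13 with a median of 10.62. The WT PCN livers read 9.42, 10.09, 10.16, 10.51 and 10.55, inside or just below that range.

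*Trib3* ranged from 10.43 to 11.65 in *Pxr*-/- CONT livers (median 11.18) and from 8.68 to 10.47 in *Pxr*-/- PCN livers (median 9.15). The ranges met only through *Pxr*-/- PCN replicate 1, at 10.47, since the other 5 treated livers were at or below 9.67. By mean the order was *Pxr*-/- PCN (9.30 ± 0.70), WT PCN (10.15 ± 0.45), WT CONT (10.55 ± 0.54) and *Pxr*-/- CONT (11.05 ± 0.47), and each neighbouring pair overlapped.

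*Trib3* was 1.75 log2 units lower in *Pxr*-/- PCN than in *Pxr*-/- CONT mice, at -1.75 (-2.33 to -1.17), a 3.36-fold difference. Of all 21056 genes, 1 fell more in that comparison. In WT mice the difference was -0.44 (-1.06 to 0.17). The difference between the effects was 1.30 (0.46 to 2.15). By these estimates *Trib3* was not higher after PCN in either genotype, although the WT interval includes a rise. *Gdf15* differed most in WT mice and *Trib3* in *Pxr*-/- mice. Both genes were chosen by such differences, so nothing is read from their intervals or their ranks among all genes.

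**Figure D1:**
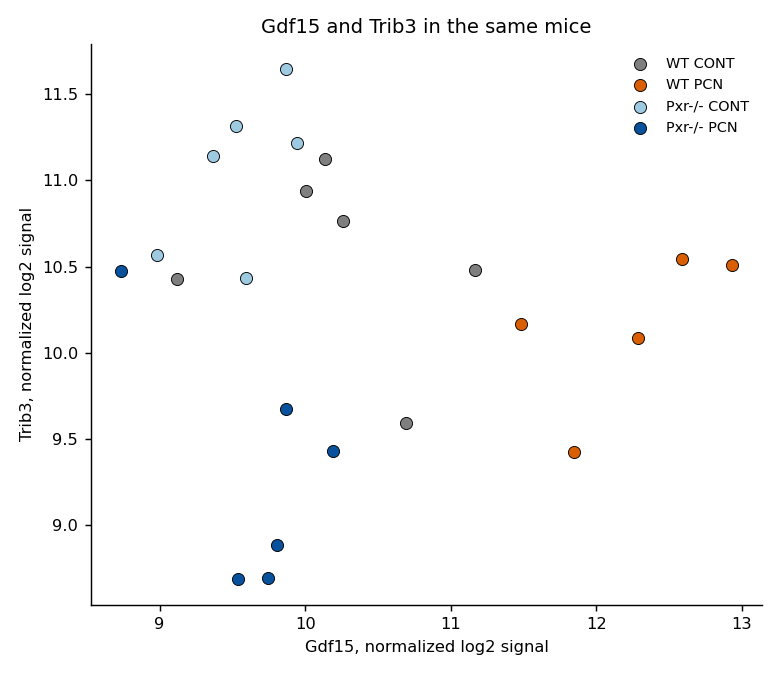
Normalized log2 signal of Gdf15 (x axis) against that of Trib3 (y axis), 1 point per mouse, coloured by group. The 5 WT PCN livers lie to the right, at Gdf15 11.48 to 12.93, with Trib3 inside the range of the controls or just below it, and 5 of 6 *Pxr*-/- PCN livers lie at the bottom, at Trib3 9.67 or lower.

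The other 8 genes were tested. After PCN in WT mice, 1 was called higher (*Nupr1*) and 1 lower (*Atf5*), where a call needed an adjusted p of at most 0.05 and a fold change above 1.5. Over all genes 3.79% were called higher and 2.39% lower in that comparison. After PCN in *Pxr*-/- mice 0 of the 8 were called (limma; 2.28% of all genes were called in either direction), although 3 had an unadjusted p below 0.05 (*Atf5*, *Chac1* and *Sesn2*). The 10 genes had a median difference of -0.02 in WT and 0.02 in *Pxr*-/- mice, against -0.02 and -0.01 over all genes.

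**Figure D2:**
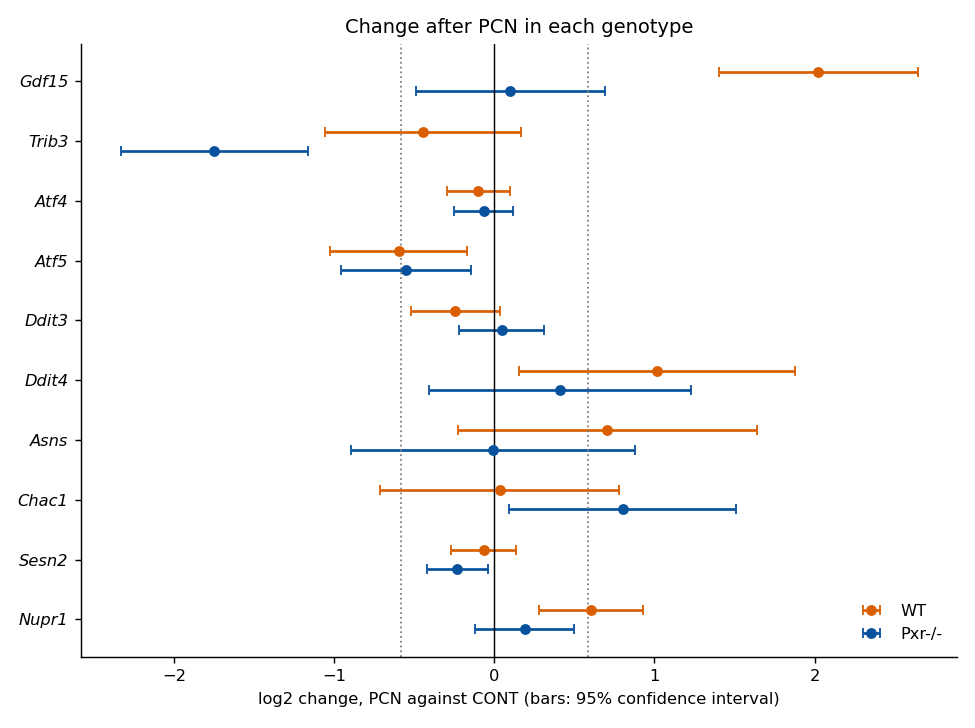
Difference in log2 signal between PCN and CONT mice for each of the 10 genes, in WT (orange) and *Pxr*-/- (blue) mice, with 95% confidence intervals from the limma fit. The dotted lines mark a 1.5-fold change. Gdf15 in WT mice (2.02) and Trib3 in *Pxr*-/- mice (-1.75) lie farthest from 0. Both genes were chosen by such differences, so nothing is read from their place or their intervals. Most other intervals cross 0.

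Among the transcription factors, *Atf4* itself hardly varied. WT CONT livers ranged from 14.33 to 14.97 and WT PCN livers from 14.36 to 14.72. *Pxr*-/- CONT livers ranged from 14.26 to 14.60 and *Pxr*-/- PCN livers from 14.25 to 14.47. The difference after PCN was -0.10 in WT (95% confidence interval -0.29 to 0.09, adjusted p = 0.48) and -0.07 in *Pxr*-/- mice (-0.25 to 0.12, adjusted p = 0.73). The other *Atf4* probe gave 0.01 and 0.00. With the deposited log2 values the WT difference of *Atf4* was 0.15, against a median of 0.11 over all probes there.

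*Atf5* encodes a related bZIP factor, abundant in hepatocytes, that is translated in the same way as ATF4. WT CONT livers ranged from 16.14 to 16.72 with a median of 16.36. The WT PCN livers read 15.11, 15.61, 15.64, 15.66 and 17.03. Of these 5, 4 lay below every WT CONT liver and replicate 4 lay above every one.

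*Atf5* fell in WT mice by 0.60 on the log2 scale (a 1.51-fold difference, adjusted p = 0.039), at the edge of the fold threshold. Leaving out replicate 4 gave -0.88 (adjusted p = 9.7e-05). The call was lost without WT CONT replicate 1 (-0.59), 2 (-0.51), 3 (-0.61) or 4 (-0.60) and without WT PCN replicate 1 (-0.54), 2 (-0.59), 3 (-0.43) or 5 (-0.53), with adjusted p between 0.052 and 0.15. It was also lost with the deposited log2 values (-0.38, adjusted p = 0.18), with the compared groups alone (-0.61, adjusted p = 0.12) and in washing batch 1 alone (-0.29, adjusted p = 0.58), while batch 2 alone gave -1.01 (adjusted p = 0.026). The processed signal (-0.50), median centring (-0.53), no filter (-0.60), no washing batch term (-0.58) and the replicate block (-0.59) lost the call as well. The second *Atf5* probe gave -0.57 (adjusted p = 0.053).

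*Atf5* in *Pxr*-/- mice ranged from 16.14 to 16.38 in CONT and from 15.31 to 16.02 in PCN livers, so the groups did not overlap (1.58% of all genes were lower without overlap in that comparison). The difference was -0.55 (-0.96 to -0.14, adjusted p = 0.096), which is under the fold threshold, and was not called. Its adjusted p (limma) was 0.014 with the compared groups alone and 0.0037 without WT CONT replicate 2 and WT PCN replicate 4. The difference was close to that in WT mice, and the difference between the effects was -0.05 (-0.64 to 0.54, adjusted p = 0.96). Without WT PCN replicate 4 the WT difference was -0.88 and the difference between the effects -0.33.

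*Ddit3* encodes CHOP, the factor that carries the response towards cell death. It ranged from 7.73 to 8.36 in WT CONT and from 7.51 to 7.96 in WT PCN livers. It ranged from 7.13 to 7.92 in *Pxr*-/- CONT and from 7.31 to 7.89 in *Pxr*-/- PCN livers. All 4 ranges overlapped, and the differences after PCN were -0.25 in WT (adjusted p = 0.20) and 0.05 in *Pxr*-/- mice (adjusted p = 0.88). The probe read for *Ddit3*, also in the correlations below, was annotated to an Ensembl transcript, and the second probe to the RefSeq one. The second *Ddit3* probe gave -0.23 and 0.24, neither of them called.

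*Nupr1* encodes a small chromatin protein induced by many stresses. WT CONT livers ranged from 7.91 to 8.53 with a median of 8.13. The WT PCN livers read 8.40, 8.60, 8.78, 8.80 and 9.26. Of these, 4 were above every WT CONT liver, and replicate 3, at 8.40, was below WT CONT replicate 2.

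*Nupr1* rose in WT mice by 0.60 on the log2 scale (0.28 to 0.93), a 1.52-fold difference (adjusted p = 0.0078). The fold fell under the threshold without WT CONT replicate 1 (0.58) or 4 (0.57) and without WT PCN replicate 2 (0.57) or 4 (0.50), with adjusted p no higher than 0.028. The call was also lost with normexp (0.55, adjusted p = 0.0061) and in washing batch 2 alone (0.45, adjusted p = 0.34). In *Pxr*-/- mice the difference was 0.19 (-0.12 to 0.50, adjusted p = 0.50). The difference between the effects was 0.42 (-0.03 to 0.87, adjusted p = 0.40), so an unequal effect in the genotypes was not shown. A second, dimmer probe on another *Nupr1* transcript gave -0.06 in WT mice and was not called.

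**Figure D3:**
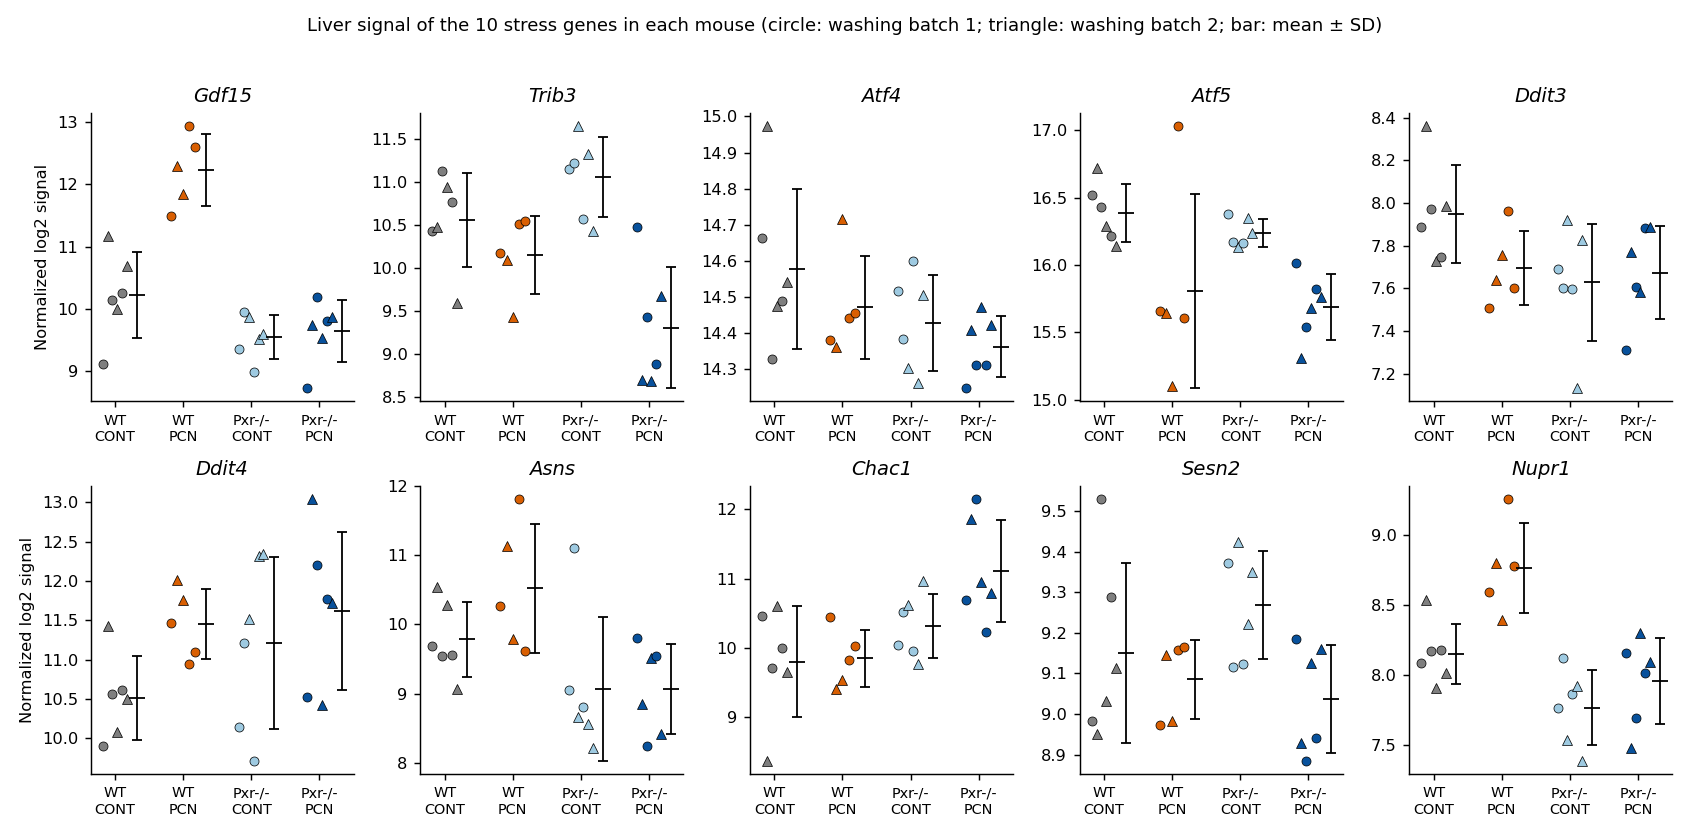
Normalized log2 signal of each of the 10 genes in each mouse, by group, with the mean ± SD beside the points. Circles are washing batch 1 and triangles batch 2, and each panel has its own y axis that does not start at 0. Gdf15 separates WT PCN from all other groups, and WT PCN replicate 4 is the high point of Atf5 (17.03), Asns (11.81) and Nupr1 (9.26).

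*Asns*, which makes asparagine and is the classical ATF4 target of amino acid shortage, varied widely within groups. WT CONT livers ranged from 9.07 to 10.54, and the WT PCN livers read 9.61, 9.78, 10.26, 11.13 and 11.81. The groups overlapped, and the difference was 0.71 (-0.23 to 1.64, adjusted p = 0.28). *Pxr*-/- CONT livers ranged from 8.22 to 11.11, where replicate 2 stood alone at 11.11 and the next liver was at 9.06. *Pxr*-/- PCN livers ranged from 8.24 to 9.81, a difference of -0.01 (-0.89 to 0.88).

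*Chac1* encodes an enzyme that degrades glutathione and is induced downstream of ATF4 and CHOP. It ranged from 8.37 to 10.61 in WT CONT livers, and WT PCN livers read 9.41, 9.54, 9.82, 10.04 and 10.45, a difference of 0.03 (adjusted p = 0.96). It ranged from 9.77 to 10.97 in *Pxr*-/- CONT and from 10.23 to 12.15 in *Pxr*-/- PCN livers. There the difference was 0.80 (0.09 to 1.51, adjusted p = 0.17), and the ranges overlapped.

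*Ddit4* and *Sesn2* encode REDD1 and Sestrin2, which restrain mTORC1. *Ddit4* ranged from 9.90 to 11.43 in WT CONT livers, and WT PCN livers read 10.94, 11.10, 11.46, 11.75 and 12.01. The groups overlapped through WT CONT replicate 2, the liver at 11.43, and the difference was 1.02 (0.16 to 1.88, adjusted p = 0.081). The difference was called in the fit without *Pxr*-/- PCN replicate 4 (1.03, adjusted p = 0.040), with the deposited log2 values (1.17, adjusted p = 0.047) and with the compared groups alone (0.99, adjusted p = 0.012). *Ddit4* in *Pxr*-/- mice ranged from 9.71 to 12.34 in CONT and from 10.43 to 13.05 in PCN livers, a difference of 0.41 (-0.41 to 1.23, adjusted p = 0.60).

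*Sesn2* stayed between 8.95 and 9.53 in WT CONT and between 8.97 and 9.17 in WT PCN livers (difference -0.07, adjusted p = 0.67). It ranged from 9.12 to 9.42 in *Pxr*-/- CONT and from 8.88 to 9.19 in *Pxr*-/- PCN livers (difference -0.23, -0.42 to -0.04, adjusted p = 0.14). Its groups overlapped in both genotypes.

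The genotypes were then compared directly. In CONT mice 0 of the 10 genes were called (limma; 0.309% of all genes were called), and 3 had an unadjusted p below 0.05, with *Gdf15* at -0.68, *Nupr1* at -0.38 and *Ddit3* at -0.32 in *Pxr*-/- against WT mice. In PCN mice, 1 of the 8 tested genes was higher in *Pxr*-/- livers (*Chac1*) and 1 lower (*Nupr1*), where 0.731% of all genes were called higher and 1.36% lower. The CONT livers entered the choice of *Gdf15* and *Trib3*, so the CONT tests of these genes are not independent of it. The comparison of PCN mice uses the same treated livers as the comparisons above.

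*Nupr1* was lower in *Pxr*-/- PCN than in WT PCN livers by 0.80 log2 units, at -0.80 (-1.12 to -0.47, adjusted p = 0.0035). The highest *Pxr*-/- PCN liver read 8.30 and the lowest WT PCN liver 8.40, so the groups did not overlap (3.67% of all genes were lower without overlap). *Chac1* was higher in *Pxr*-/- PCN livers by 1.28 (0.53 to 2.02), a 2.42-fold difference (adjusted p = 0.032), while the ranges overlapped between 10.23 and 10.45. The *Chac1* call was lost without WT PCN replicate 2 (1.18), 3 (1.21), 4 (1.25) or 5 (1.31) and without *Pxr*-/- PCN replicate 2 (1.11) or 3 (1.06), with adjusted p from 0.051 to 0.091. It was lost too with no filter (1.28, adjusted p = 0.054) and within batch 1 (0.92) or batch 2 (1.72) alone.

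*Asns* was lower in *Pxr*-/- PCN livers, at -1.43, and was not called (-2.36 to -0.49, adjusted p = 0.053). It was called in the fits without WT CONT replicate 2 (-1.42), WT PCN replicate 5 (-1.68), *Pxr*-/- CONT replicate 2 (-1.45) or *Pxr*-/- PCN replicate 4 (-1.55), with adjusted p from 0.017 to 0.048. It was also called with the deposited log2 values (-1.66, adjusted p = 0.010), median centring (-1.45, adjusted p = 0.043) or no washing batch term (-1.46, adjusted p = 0.048). Its second probe, which was well above background on 3 of 6 *Pxr*-/- CONT and 4 of 6 *Pxr*-/- PCN arrays, gave -0.96 (adjusted p = 0.0496) and was called. *Gdf15* and *Trib3*, given with no test, differed by -2.60 and -0.81 between *Pxr*-/- PCN and WT PCN livers, and for *Gdf15* the ranges did not overlap. For none of the 8 tested genes was the difference between the PCN effects of the genotypes called (limma; 1.05% of all genes were called), and none had an unadjusted p below 0.05.

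Individual mice carried several of these genes together. WT CONT replicate 2 had the highest value of its group for 7 of the 10 genes (*Gdf15*, *Atf4*, *Atf5*, *Ddit3*, *Ddit4*, *Asns* and *Nupr1*) and the lowest for *Chac1* and *Sesn2*. WT PCN replicate 4 had the highest of its group for 5 (*Gdf15*, *Atf5*, *Ddit3*, *Asns* and *Nupr1*). These were also the arrays least like the rest of their groups, with correlations of 0.9923 and 0.9928. Without both, the difference after PCN in WT mice was 1.99 for *Gdf15*, -0.48 for *Trib3*, -0.80 for *Atf5* (adjusted p = 0.00018) and 0.59 for *Nupr1* (adjusted p = 0.0093), and 2 of the 8 tested genes were called as before.

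Deviations of each mouse from its group mean, with the washing batch removed, were correlated between the 10 genes over 23 mice. These are descriptions of 45 pairs, which share arrays and normalization, and no test was made. The median of the 45 coefficients was 0.04, and 3 were above 0.5. *Atf5* with *Nupr1* had r = 0.66 (rho = 0.57, and r = 0.58 without the 2 mice farthest from the median of the first-named gene). *Asns* with *Nupr1* had r = 0.64 (rho = 0.53, and 0.54 without 2 mice).

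*Gdf15* varied most closely with *Ddit3* (r = 0.52, rho = 0.53, 0.49 without 2 mice). It had no visible relation with *Trib3* (r = 0.03, rho = 0.09, -0.05 without 2 mice). *Chac1* ran against *Nupr1* (r = -0.66, rho = -0.67, -0.53 without 2 mice).

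**Figure D4:**
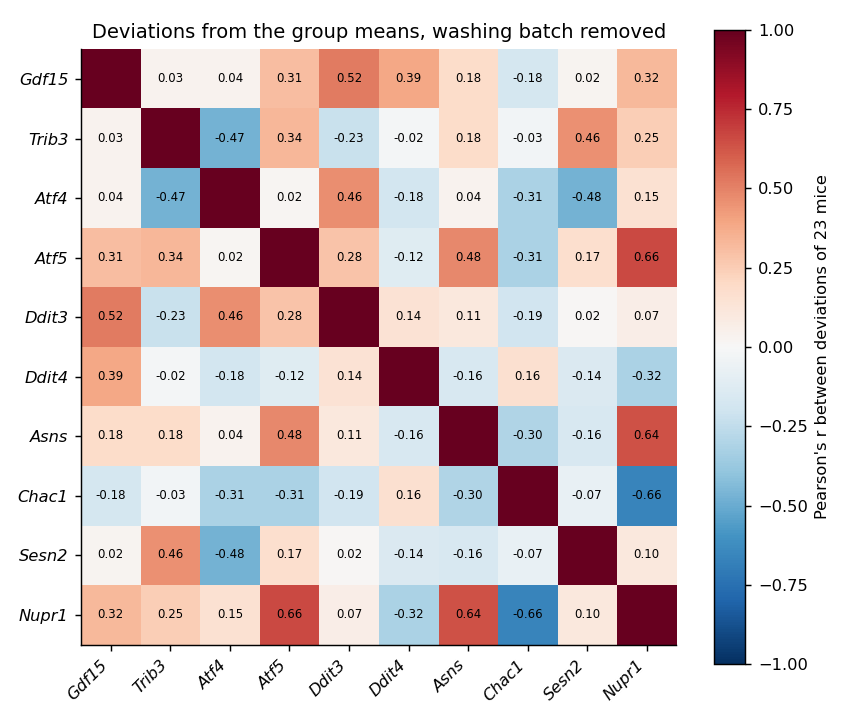
Pearson's r between the deviations of 23 mice from their group means, for each pair of the 10 genes, with the effect of washing batch removed. Red is positive and blue negative. The highest values join Nupr1 with Atf5 (0.66) and with Asns (0.64), the lowest joins Nupr1 with Chac1 (-0.66), and Gdf15 with Trib3 stands at 0.03.

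Over the signals of all 23 arrays, the genes whose pattern was most like that of *Gdf15*, among 15089 genes with a RefSeq name, were *Xk* (r = 0.94), *Rbbp8* (0.92), *Dll1* (0.91), *Clic4* (0.91) and *Vcpip1* (0.90). The most opposed were *BC024139* (-0.90), *Mug1* (-0.86) and *Colec12* (-0.86). Spearman's rho for the 5 most alike lay between 0.65 and 0.82. For *Trib3* the most alike were *Mef2d* (0.86), *Ppargc1b* (0.86), *Sgms2* (0.85), *Raet1e* (0.84) and *Hps1* (0.83), and the most opposed were *Arnt* (-0.89), *Nnmt* (-0.85) and *Itih3* (-0.83). These signals had the washing batch removed but kept the group differences, by which *Gdf15* and *Trib3* were chosen. No gene was in both sets, and nothing is read from this.

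Other genes of the pathway were read from 12 lists of 102 genes, of which 97 passed the filter. After PCN in WT mice 7 were called higher and 3 lower, where 3.79% and 2.39% of all genes were, and in *Pxr*-/- mice 4 were called higher and 0 lower, where 1.42% of all genes were called higher. The median difference was 0.01 in WT and 0.02 in *Pxr*-/- mice, against -0.02 and -0.01 over all genes. For 0 of the 97 was the difference between the PCN effects of the genotypes called (limma; 1.05% of all genes were). A call in 1 genotype alone thus does not show an unequal effect. *Aldh1l2*, *Slc7a11*, *Slc7a3*, *Gfral* and *Ret* were below the filter, so no level is given for the receptor of GDF15 and its partner.

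The kinases and phosphatases of eIF2α had 0 of 9 genes called in either genotype. The largest differences in WT mice were those of *Dnajc3*, an inhibitor of the kinases PERK and PKR (-0.52, adjusted p = 0.012), and *Impact*, an inhibitor of GCN2 (0.45, adjusted p = 0.0095), both under the fold threshold. Of 12 cytosolic tRNA synthetases, which ATF4 also drives, 0 were called, and *Iars* (0.32, adjusted p = 0.0032) and *Wars* (0.14, adjusted p = 0.40) had the largest WT differences.

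Of the 8 bZIP partners of ATF4, *Atf3*, an early stress factor, rose by 1.53 in WT mice (adjusted p = 5.1e-06) and by 0.76 in *Pxr*-/- mice (adjusted p = 0.011). It was 1.07 lower in *Pxr*-/- PCN than in WT PCN livers, at -1.07 (adjusted p = 0.00085). *Cebpb* rose by 0.68 (adjusted p = 0.012) and *Cebpa*, the factor of differentiated hepatocytes, fell by 0.72 (adjusted p = 0.00020) in WT mice. In *Pxr*-/- mice they differed by 0.30 (limma, adjusted p = 0.36) and -0.37 (adjusted p = 0.055), neither of them called. *Xbp1*, the factor of the IRE1 branch of the unfolded protein response, rose by 0.69 in *Pxr*-/- mice (adjusted p = 0.018). In WT mice *Xbp1* differed by 0.40 (limma, adjusted p = 0.12) and was not called.

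Among 13 measured genes of amino acid and one-carbon synthesis, *Cbs*, which condenses homocysteine with serine, fell by 0.83 in WT mice (adjusted p = 5.3e-05). In *Pxr*-/- mice *Cbs* differed by -0.33 (limma, adjusted p = 0.087) and was not called. *Pycr1*, of proline synthesis, rose by 0.75 in *Pxr*-/- mice (adjusted p = 0.0085) and differed by -0.13 in WT mice (adjusted p = 0.65), not called. *Cth*, which makes cysteine, was 0.64 lower in *Pxr*-/- PCN than in WT PCN livers, at -0.64 (adjusted p = 0.028). *Psat1* and *Phgdh*, of serine synthesis, were not called (0.96 and 0.50 in WT mice, adjusted p = 0.085 and 0.36). *Shmt2* (0.44, adjusted p = 0.0024) and *Aldh18a1* (0.48, adjusted p = 0.0067) stayed under the fold threshold in WT mice. Of the 13 genes, 10 had a positive and 3 a negative WT difference.

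Of 8 measured amino acid transporters, *Slc43a1*, a carrier of large neutral amino acids, rose by 1.17 in WT mice (adjusted p = 0.0075) and by 1.23 in *Pxr*-/- mice (adjusted p = 0.013). *Slc7a1*, the carrier of arginine and lysine, rose by 0.75 in WT mice (adjusted p = 0.00062), where 1 WT CONT array had no value and was left out of its fit. In *Pxr*-/- mice *Slc7a1* differed by 0.54 (adjusted p = 0.014) and stayed under the fold threshold.

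Of 12 other targets of the stress response, *Fgf21*, the other stress hormone of the liver, fell by 2.17 in WT mice (adjusted p = 0.0011). WT CONT livers had a mean of 8.17 ± 1.11 (SD, n = 6) and WT PCN livers of 5.96 ± 0.85 (n = 5). *Pxr*-/- livers had means of 6.82 ± 0.64 (CONT, n = 6) and 6.00 ± 0.39 (PCN, n = 6). Of the 2 hormones of this response, *Gdf15* was thus higher and *Fgf21* lower in WT PCN than in WT CONT livers, where *Gdf15* had been chosen for its difference. The study's text places *Fgf21* among the targets of the nuclear receptor PPARα that fell with PXR activation. Which factor lay behind the *Fgf21* difference was not tested here. Between CONT groups *Fgf21* differed by -1.34 in *Pxr*-/- against WT mice (limma, adjusted p = 0.20). In *Pxr*-/- mice *Fgf21* differed by -0.82 (adjusted p = 0.25).

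Of 8 targets of p53, a factor that also drives *Gdf15* and *Sesn2*, 3 rose in WT mice (3.79% of all genes were called higher), *Cdkn1a* by 1.14 (adjusted p = 0.027), *Phlda3* by 0.84 (adjusted p = 0.0047) and *Trp53inp1* by 0.82 (adjusted p = 0.0095). They differed in *Pxr*-/- mice by 0.58, 0.45 and -0.18, none of them called, and for none of the 8 was the difference between the effects called.

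The remaining lists held no call after PCN. The largest WT differences were *Trib2* (0.52, adjusted p = 0.0025) and *Akt2* (-0.16) among 4 Tribbles and Akt genes, and *Tsc1* (-0.37, adjusted p = 0.0043) and *Rheb* (-0.28) among 8 genes of the mTORC1 pathway. Among 6 mitochondrial stress genes they were *Hspe1* (0.41, adjusted p = 0.0098) and *Hspd1* (0.25). Among 6 targets of the glucocorticoid receptor they were *Per1* (-0.96, adjusted p = 0.13) and *Tsc22d3* (-0.88, adjusted p = 0.090), and *Tat* was 0.73 higher in *Pxr*-/- PCN than in WT PCN livers (adjusted p = 0.044). Of 3 measured GDF15 processing genes, *Pcsk6* (-0.25) and *Pcsk5* (0.05) differed most.

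**Figure D5:**
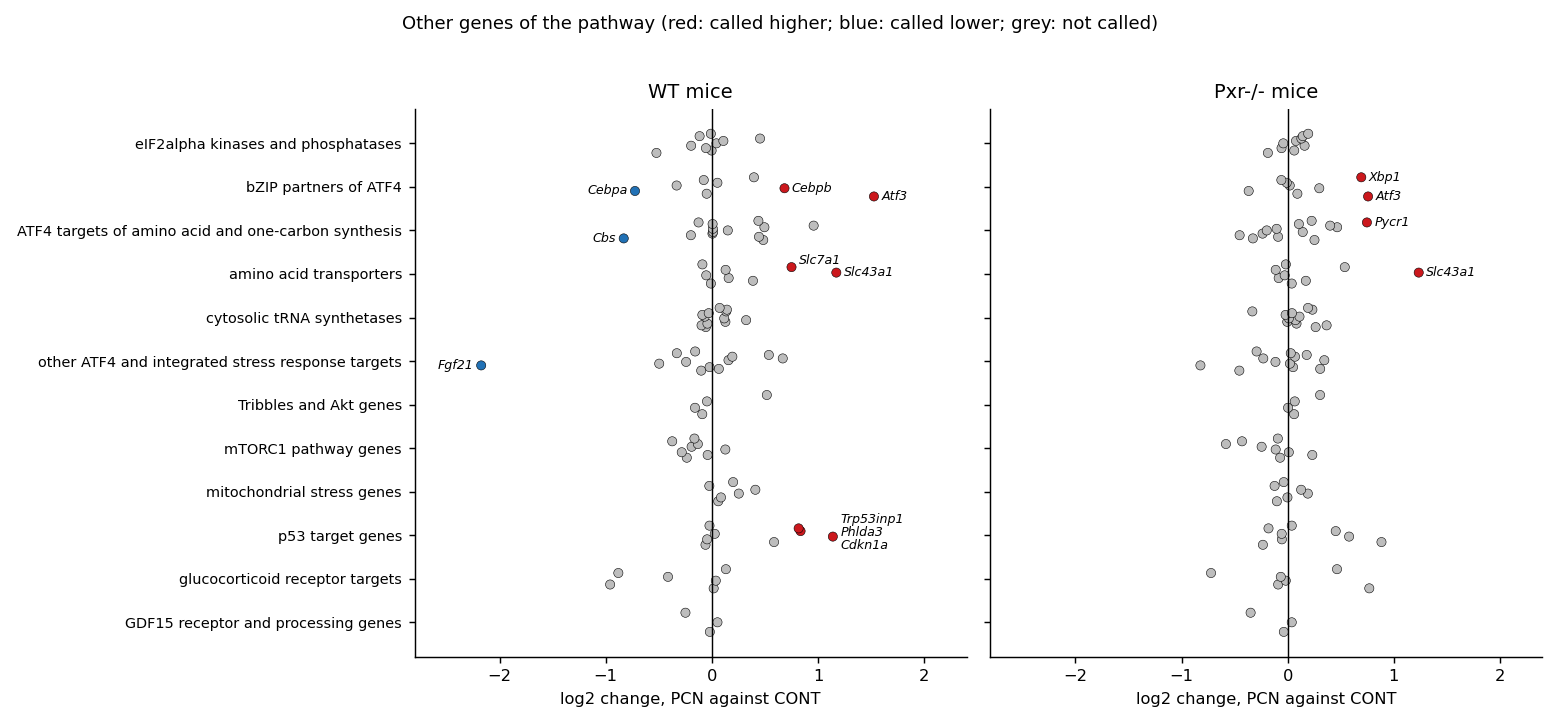
Difference in log2 signal between PCN and CONT mice for the 97 measured genes of the other pathway lists, in WT (left) and *Pxr*-/- (right) mice, 1 point per gene. Called genes are named and coloured red when higher and blue when lower. Most points lie near 0, and Atf3 (1.53) and Fgf21 (-2.17) are the farthest from it in WT mice.

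In whole liver, a change in the number of cells of a type cannot be told apart from a change in RNA per cell. Of 5 neutrophil markers, 4 were measured (*Ngp* was below the filter) and 3 were called higher after PCN in WT mice and 2 in *Pxr*-/- mice. Their summed signal, on the log2 scale, ranged from 10.13 to 12.30 in WT CONT and from 12.39 to 13.80 in WT PCN livers. It ranged from 10.47 to 12.36 in *Pxr*-/- CONT and from 12.39 to 14.04 in *Pxr*-/- PCN livers. The sums did not overlap between PCN and CONT mice of a genotype, and 2 of the 4 markers carried them, *S100a8* (2.21 in WT, 2.19 in *Pxr*-/-) and *S100a9* (2.03 and 2.00). *Ly6g* was not called (0.16 and 0.35), and *Mpo* was called in WT mice alone (0.83 and -0.45). The part of these transcripts in the values of *Gdf15*, *Trib3* and the called genes was not tested.

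Among the other marker lists, *Col1a1* of 5 stellate cell genes was called higher in both genotypes (3.17 in WT, 1.96 in *Pxr*-/-), *Sox9* of 5 cholangiocyte genes in WT mice (0.76) and *Apoa1* of 6 hepatocyte genes in *Pxr*-/- mice (0.62). The summed cholangiocyte signal, on the log2 scale, ranged from 10.50 to 12.20 in WT CONT and from 11.68 to 12.96 in WT PCN livers. It ranged from 10.80 to 11.70 in *Pxr*-/- CONT and from 11.13 to 12.51 in *Pxr*-/- PCN livers. None of the macrophage, endothelial, lymphocyte or blood genes was called after PCN.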

How the data were processed

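Liver RNA of 23 mice was hybridised to Agilent 1-colour arrays, 1 per mouse. The deposited scanner files (Agilent Feature Extraction 10.10.1.1) hold an unnormalized intensity and quality flags for each spot. A table of log2 values normalized by the authors was deposited too (batch corrected, CrossNorm), which served as an alternative.

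Log2 median signals were used, with 2225 outlier-flagged spots set to missing and spots of a probe averaged. Of 56605 probes, 32087 were kept because the scanner flagged them as well above background in over 50% of the mice of any group, and their signals were quantile normalized. The filter can keep a probe through a group in which it is high. limma 3.58.1 (R 4.3.3) fitted all 23 arrays at once with a group term and a washing batch term (18 residual degrees of freedom), with Benjamini-Hochberg adjustment over all 32087 probes. A call needed an adjusted p of at most 0.05 and a fold above 1.5. A gene was read from its kept probe of highest mean signal. Fitted changes can differ slightly from differences of group means. Values are log2 signals with SD over mice; no molecules are counted on arrays, and precision is limited by how many arrays there were.

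Named genes are all 10 members, from each list every called gene and otherwise the 2 with the largest WT change, and the 5 most alike and 3 most opposed genes. *Psat1*, *Phgdh*, *Shmt2*, *Aldh18a1*, *Per1*, *Tsc22d3* and *Ly6g* were named as well, uncalled genes of lists that held a call. The members and lists were chosen with earlier results of these data known. Groups, replicate numbers and washing batches (3 arrays of each group per batch, 2 of WT PCN in batch 2) came from the labels, and a twelfth WT mouse is not analysed here. Alternatives were another signal, background correction, scaling, filter, batch, slide or replicate block, the compared groups alone, each batch alone and each array left out.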

Additional observations from a re-analysis of the deposited data

Results flagged for a closer look

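Of 40 sets of values (10 genes in 4 groups), 3 held a liver far from the rest by Dixon's test at the 95% level, which chance alone gives in about 1 of 20 sets. *Atf4* in WT PCN replicate 3 was 14.72, with the next liver at 14.46. *Atf5* in WT PCN replicate 4 was 17.03, with the next at 15.66. *Asns* in *Pxr*-/- CONT replicate 2 was 11.11, with the next at 9.06.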

How the results depend on the processing

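The members called after PCN in WT mice (2) numbered 1 with the processed signal, normexp, median centring, no filter, no batch term, batch 1 alone or batch 2 alone, and between genotypes in PCN mice (2) they numbered 1 with no filter or batch 1 alone and 0 with batch 2 alone, but 3 with deposited values, median centring or no batch term, each adding *Asns*. With deposited values or the compared groups alone the WT count stayed 2, with *Ddit4* called in place of *Atf5*. Leaving out 1 array gave 0 to 3 and 1 to 3, and 0 in the other comparisons. Over the other alternatives, 582 of 640 values stayed the same. For tested values this means the same direction and call, and for the untested values of *Gdf15* and *Trib3* a shift within 1 residual SD. The deposited log2 values moved the median of all probes to 0.11 after PCN in WT mice and to -0.18 for genotype in PCN mice. The cause of these differences was not tested.

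Tested values that turned direction were all uncalled. With deposited values they were *Atf4* 0.15 and *Sesn2* 0.086 (PCN in WT), *Asns* 0.056 (PCN in *Pxr*-/-), *Atf4* 0.17 and *Atf5* 0.15 (interaction), *Sesn2* -0.020 (genotype in CONT) and *Ddit4* -0.16 (genotype in PCN). With median centring they were *Atf4* 0.0034 (PCN in WT), *Atf4* 0.086 and *Atf5* 0.063 (interaction). With the processed signal they were *Atf4* 0.036 and *Atf5* 0.093 (interaction). With only the compared groups it was *Chac1* -0.0077 (PCN in WT), and with slide as a block *Asns* 0.0023 (PCN in *Pxr*-/-). In batch 1 they were *Ddit3* -0.029 (PCN in *Pxr*-/-), *Atf4* 0.14, *Atf5* 0.15 and *Ddit4* -0.33 (interaction), and *Atf4* 0.0067, *Ddit4* -0.0012, *Asns* 0.057 and *Sesn2* -0.063 (genotype in CONT). In batch 2 they were *Chac1* -0.068 and *Sesn2* 0.032 (PCN in WT), *Atf4* 0.078, *Ddit4* -0.33 and *Asns* 0.45 (PCN in *Pxr*-/-), and *Atf5* 0.21, *Ddit3* 0.048, *Ddit4* -0.15 and *Sesn2* 0.0064 (genotype in PCN). Without WT CONT replicate 2 and WT PCN replicate 4, a pair chosen after seeing the data, they were *Chac1* -0.23 (PCN in WT), *Atf4* 0.042 (interaction), *Atf5* 0.19 and *Ddit3* 0.046 (genotype in PCN). Leaving out 1 array turned 25 of 1150 values, besides the untested *Gdf15* (PCN in *Pxr*-/-, -0.04 to 0.27), with ranges of -0.24 to 0.21 for *Chac1* and -0.11 to 0.016 for *Sesn2* (PCN in WT), -0.068 to 0.11 for *Ddit3* and -0.15 to 0.39 for *Asns* (PCN in *Pxr*-/-), -0.092 to 0.038 for *Atf4* and -0.33 to 0.12 for *Atf5* (interaction), and -0.26 to 0.19 for *Atf5*, -0.083 to 0.046 for *Ddit3* and -0.13 to 0.40 for *Ddit4* (genotype in PCN).

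Same-numbered arrays had pair correlations of -0.19 to 0.60 between their deviations, with means per number from -0.09 to 0.12. For 8 of 23 arrays, the most alike array of another group bore the same number. Whether the numbers mark a pairing was not tested. With the replicate block, 1098 probes were called higher and 676 lower after PCN in WT mice, against 1085 and 685 without it. *Atf5* -0.59 and *Chac1* 1.25 (genotype in PCN) were then not called, and *Ddit4* 1.02 (PCN in WT) and *Asns* -1.31 (genotype in PCN) were; it changed no other member's call.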
